A study of Nicotiana tabacum with 12 samples.

Results

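The later response to AmMIXTA was measured 48 h after induction in tobacco seedlings (Nicotiana tabacum, cultivar Petit Havana SR1). The comparison sets the libraries of estradiol-treated seedlings against the non-induced libraries of the same age, 6 of the 12 libraries of the series as deposited. Control replicates 2 and 3 held identical values in 42659 of 42659 genes and were counted as 1 sample, called control replicate 2 below. That leaves 5 distinct libraries, 2 control and 3 induced. All seedlings, controls included, came from T2 seed of stably transformed plants that carry AmMIXTA behind a promoter switched on by β-estradiol, and each collection pooled the aerial parts of 15 seedlings that were 9 days old. The 4 h libraries, used below for contrast, are 3 control and 3 induced collections of 7-day-old seedlings of the same kind. The labels do not give the number of transgenic lines, the cell types in which the promoter acts, or a group given estradiol without the transgene, so a response to estradiol and a response to AmMIXTA cannot be told apart. The level of AmMIXTA itself was not analysed here.

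MIXTA, an R2R3 MYB transcription factor of snapdragon, gives petal epidermal cells their conical form, and its relatives promote outgrowth of epidermal cells in many plants. The glandular trichomes of tobacco are multicellular epidermal hairs whose heads make and secrete diterpenes and sugar esters. The series asked, at this later time, what changes as epidermal cells of the cotyledon take on a trichome fate. Since RNA was taken from whole aerial parts, a change in the number of cells of a type and a change in RNA per cell cannot be told apart in any value below.

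Values are normalised read counts, the authors' scaled values, in which whole reads were divided by a factor of each library. Without 14 genes left out for inflated entries, the libraries held between 12457701 and 23686228 reads, except control replicate 1, which held 1240033. There 1 read was worth a value of 0.280, against 0.0152 to 0.0313 in the other 4 libraries, so low genes were measured coarsely in it, and 41 genes were at 0 where 2613 were expected from control replicate 2. Transcripts of the chloroplast made up 5.80% and 6.74% of the reads kept in the controls and 8.52%, 6.28% and 6.87% in the induced libraries. The SD of the log2 difference between 2 libraries, over 11369 genes with a mean of at least 5, was 0.273 between the controls, 0.238 to 0.294 between induced libraries, and 0.229 to 0.331 between a control and an induced library. Libraries of different groups were thus about as far apart as libraries of 1 group. Control replicate 1 was nearest to induced replicate 3 and control replicate 2 to induced replicate 2, and both of these couples share a library number in the labels.

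At 48 h a long non-coding RNA, a heat stress transcription factor B-2b-like gene and a gene without a name rose in induced seedlings, and a protein-coding gene without a name fell. In lists made after values were seen, 17 of 25 abscisic acid genes lay above the controls and 7 of 18 wound genes lay below. Of either list, 0 passed the unpaired test. Of 32954 genes tested, 4 passed an adjusted p of 0.05 by limma, which is 0.0121% of those tested, with 3 higher (0.0091%) and 1 lower (0.00303%) in induced seedlings. Without adjustment, 1960 genes had a p under 0.05, 1115 of them higher and 845 lower. Every induced library lay above every control library in 4048 genes (12.3%) and below in 3041 (9.23%). With libraries paired by their number, the count rose to 409 genes (1.24%), 261 higher and 148 lower, and the 4 genes of the unpaired test were among them. That paired fit rests on 2 pairs with 1 residual degree of freedom per gene, because induced replicate 1 has no distinct partner. Control replicate 3, merged into control replicate 2, has the number of induced replicate 1, so the labels allow either induced library as partner. The merged control was paired with induced replicate 2, by number 3. Leaving out induced replicate 3 gave 67 genes and leaving out induced replicate 2 gave 34, each including all 4, and leaving out any of the others gave 3 to 6. An exact permutation test of 2 against 3 libraries cannot give a two-sided p below 0.2, so single values carry no test of their own.

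The largest change among these 4 genes was in a long non-coding RNA, LOC107782728. Its normalised read count was 15.9 and 15.1 in control replicates 1 and 2, and 38.7, 41.8 and 47.9 in induced replicates 1, 2 and 3. The groups did not overlap, and the lowest induced library was well above the highest control. The mean rose to 42.8 ± 4.67 (SD, n = 3) in induced seedlings, against 15.5 ± 0.579 (SD, n = 2) in controls. The log2 fold change was 1.43, with an SE of 0.13 and an adjusted p of 9.23e-05 by limma. The gene also passed by edgeR and DESeq2, but not by voom (adjusted p = 0.138). At 4 h the same RNA fell, from values of 13.2, 13.1 and 19.3 in the controls to 5.73, 6.92 and 4.86 in induced seedlings (log2 fold change −1.30, adjusted p = 9.49e-05 by limma). The effects at the times thus ran in opposite directions, each without overlap of the groups, and the difference between them was 2.78 on the log2 scale (SE 0.21, adjusted p = 3.78e-07 by limma).

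A heat stress transcription factor B-2b-like gene, LOC107823244, rose as well. Class B heat shock factors lack the activation domain of class A factors, and several act as repressors in Arabidopsis. Its value was 6.71 and 8.87 in the controls and 19.7, 18.7 and 19.5 in the induced libraries. The induced libraries lay close together (19.3 ± 0.548, SD, n = 3) and clear of the controls (7.79 ± 1.52, SD, n = 2). This gave a log2 fold change of 1.27, with an SE of 0.14 (adjusted p = 4.98e-04 by limma). At 4 h it was −0.37 (adjusted p = 0.820 by limma), and the effect at 48 h exceeded that at 4 h by 1.69 (adjusted p = 0.00114 by limma).

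Both other genes of the class gave smaller values. LOC107769826 was at 0.559 and 0.686 in controls and at 1.35, 1.85 and 2.03 in induced libraries, without overlap (log2 fold change 0.99, adjusted p = 0.211 by limma, 0.00303 paired). LOC107775044 was at 0.559 and 0.739 against 0.907, 1.42 and 1.60, again without overlap (log2 fold change 0.64, adjusted p = 0.724 by limma). All 3 are listed as higher in the authors' deposited table for 48 h. Reads of such close copies could be split between them in counting, so the share of each is uncertain.

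The remaining genes past the threshold have no name in the files. LOC107809507 was at 5.03 and 6.49 in controls and 11.9, 11.1 and 14.5 in induced libraries, and it rose, with a log2 fold change of 1.06 and an SE of 0.15 (adjusted p = 0.0149 by limma). LOC107781399, a protein-coding gene, was the only gene that fell. It was at 15.9 and 16.5 in controls and 9.61, 9.14 and 8.42 in induced libraries, which gave a log2 fold change of −0.81 with an SE of 0.13 (adjusted p = 0.0469 by limma). In both genes the groups did not overlap. Both passed by DESeq2, but neither passed by edgeR, by voom, with both times in 1 fit or without induced replicate 1 (adjusted p = 0.213 for each by limma). LOC107781399 also did not pass with a pseudocount of 0.1 or with no filter on low values. LOC107809507 did not pass with the repeated control counted as 2 samples. Without control replicate 1, the log2 fold change was 0.89 for LOC107809507 and −0.84 for LOC107781399.

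**Figure D1:**
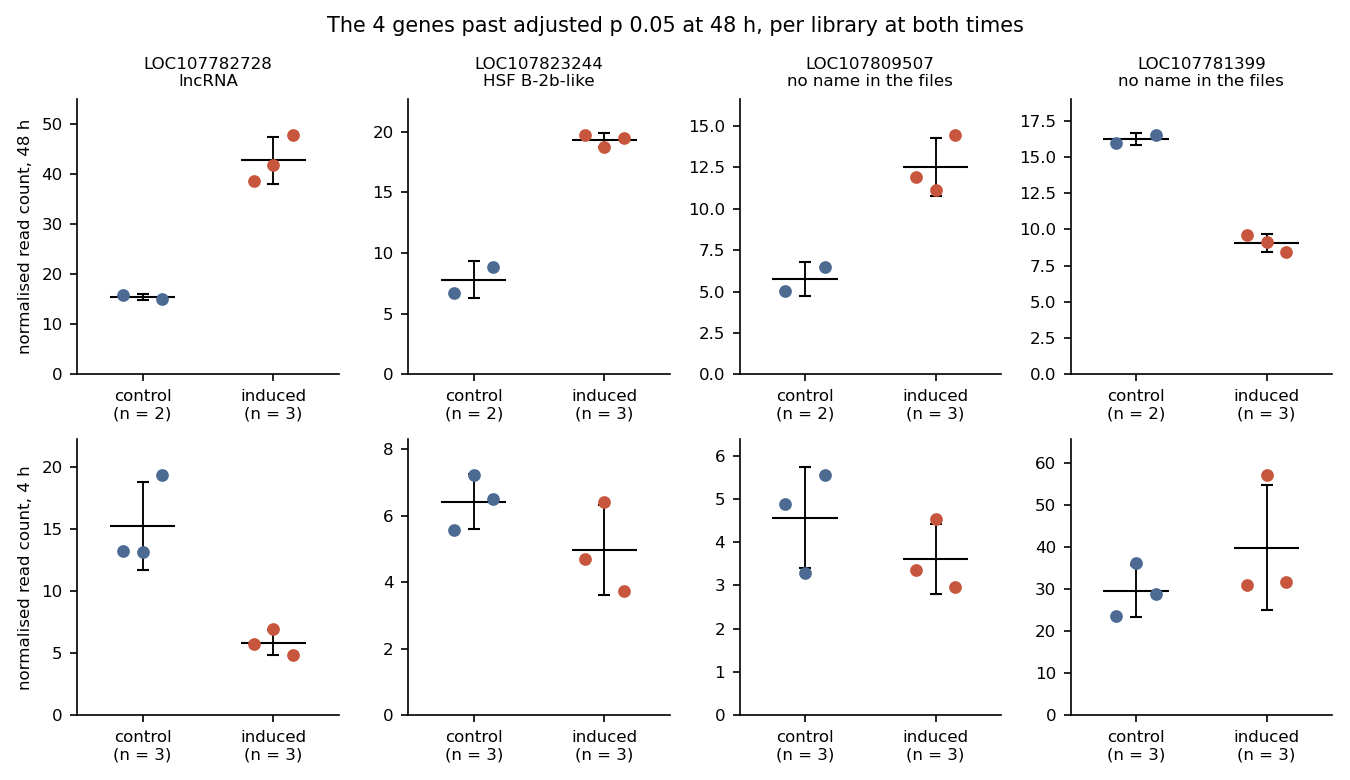
Normalised read count of the 4 genes past adjusted p 0.05 at 48 h, in each library at 48 h (top) and at 4 h (bottom). Points are libraries, horizontal lines are means and bars are SD; the tables of the 2 times were scaled separately, so levels are read within a row. At 48 h no gene's groups overlap, and LOC107782728 is higher in induced libraries at 48 h and lower at 4 h.

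A further 19 genes had an adjusted p from 0.05 to 0.1, 14 of them with positive and 5 with negative values, and in all 19 the groups did not overlap. All 19 also had a paired adjusted p under 0.05. The 8 with a name include LE25-like and LTI65-like genes, a protein phosphatase 2C and an EIN3-binding F-box gene, described with their groups below. Of the others, a stress-associated protein 16-like gene with AN1 and C2H2 zinc fingers (LOC107799902) was at 2.24 and 2.51 in controls and 6.95, 4.46 and 8.42 in induced libraries (log2 fold change 1.27, adjusted p = 0.0657 by limma, 3.24e-04 paired). An amino acid transporter ANTL1-like gene (LOC107781193) was at 2.24 and 2.53 against 6.70, 4.86 and 4.12 (0.97, adjusted p = 0.0899 by limma, 0.00361 paired). A root phototropism protein 3-like gene (LOC107829820), of a family that relays blue light signals from phototropins in Arabidopsis, was at 2.24 and 2.48 against 5.98, 4.21 and 4.65 (0.92, adjusted p = 0.0798 by limma, 0.00445 paired). In these 3 genes the controls differed by less than the gap to the lowest induced library.

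Names exist for 1190 of the tested genes, and they lean towards higher genes, because most descriptions come from the authors' deposited table for 48 h, which lists higher genes. Of the 413 tested genes in that table, 413 had every induced library above every control library. Outside it, 964 named genes were tested, with 104 above (10.8%), 79 below (8.2%) and a median log2 fold change of 0.03, against 0.02 over all genes tested. A direction among listed genes is therefore not independent evidence, and each group below is given with the number of its members that stand in that table. Other descriptions come from the authors' table of 166 genes higher at 4 h, so genes named that way lean towards higher values at 4 h. Counts above and below in the lists are to be read beside the shares over all genes tested, 12.3% above and 9.23% below. In all lists below, the B-2b-like gene LOC107823244 was the only member that passed by limma. No list member passed by edgeR or by voom, and DESeq2 passed LOC107823244 and 4 more, TAF-2, an LE25-like gene (LOC107813362) and the EIN3-binding F-box genes LOC107795861 and LOC107806314.

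Genes of the abscisic acid pathway had the highest median log2 fold change of the lists with at least 10 genes tested. The list was made after values were seen, so this rank is not independent evidence. Abscisic acid is the hormone of drought and seed dormancy. It is made from carotenoids through NCED enzymes, its receptors inhibit protein phosphatases 2C, and kinases freed from those phosphatases activate bZIP factors of the ABF type, which switch on protective proteins. Of 25 genes tested, 23 had a positive log2 fold change, 17 had all induced libraries above all controls and 0 had them below, and the median was 0.92 (1.14 without control replicate 1). The shares over all genes tested were 12.3% above and 9.23% below. By limma 0 passed, with 15 at an unadjusted p under 0.05, all higher. Paired by library number 19 passed, all higher, against 1.24% of all genes tested. The authors' table holds 15 of them. The other 10 had a median of 0.79, with 2 above and 0 below, where 10.8% of all named genes outside the table lay above. These 10 were also chosen after values were seen, so they are not independent evidence. An abscisic acid list set by name patterns held 7 tested genes, 6 above and 0 below, with a median of 0.66. Of those 7, 6 stand in the authors' table and the other had −0.28.

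At the level of synthesis, 2 genes of NCED3, the dioxygenase that commits carotenoids to abscisic acid, had overlapping groups. LOC107827644 was at 8.67 and 5.49 in controls and 12.5, 8.21 and 17.6 in induced libraries (log2 fold change 0.78, adjusted p = 0.920 by limma, 2.23e-04 paired). LOC107799511 was at 9.79 and 4.28 against 11.5, 7.92 and 17.5 (0.80, adjusted p = 0.953 by limma, 3.96e-05 paired). In both, control replicate 1 exceeded induced replicate 2, and induced replicates 2 and 3 each exceeded the control that shares their number.

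Among the phosphatases, which restrain the pathway and are known targets of it, PP2C 24 (LOC107807989) was at 0.839 and 0.317 in controls and 2.32, 1.67 and 2.96 in induced libraries (log2 fold change 1.40, adjusted p = 0.0657 by limma, 5.49e-05 paired). The control values there rest on 3 reads in replicate 1. PP2C1 (LOC107803211), an abundant member, was at 29.1 and 14.9 against 39.0, 27.8 and 47.1, with overlap (0.82, adjusted p = 0.920 by limma, 1.32e-06 paired). PP2C2 (LOC107779894) was at 35.0 and 20.3 against 48.0, 34.5 and 56.4, also with overlap (0.76, adjusted p = 0.845 by limma, 4.18e-06 paired). Control replicate 1 lay between the induced libraries in both of these genes.

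The transcription factors of the group differed in direction. ABF2 (LOC107824387) was at 10.1 and 8.13 in controls and 15.7, 13.6 and 27.2 in induced libraries (log2 fold change 0.95, adjusted p = 0.765 by limma, 1.06e-05 paired), while ABF1 (LOC107815582) was at 3.64 and 5.01 against 3.91, 2.48 and 3.90 (−0.30, adjusted p = 0.926 by limma). Of the ATHB-12-like homeodomain-leucine zipper genes, whose Arabidopsis relative is induced by abscisic acid and water deficit, LOC107765920 was at 10.9 and 8.08 against 29.2, 22.0 and 47.1 (1.68, adjusted p = 0.574 by limma, 2.35e-09 paired). Its copy LOC107772091 was at 8.39 and 3.99 against 20.6, 13.7 and 33.3 (1.78, adjusted p = 0.830 by limma, 3.31e-14 paired). Groups were apart in both copies, and induced replicate 3 was the highest library in each. For the NAC72-like factors, known in Arabidopsis as RD26, LOC107771009 was at 2.80 and 1.64 against 6.23, 4.28 and 9.53 (1.37, adjusted p = 0.569 by limma, 2.32e-07 paired). LOC107765862 was at 26.3 and 16.6 against 40.0, 29.8 and 53.5 (0.92, adjusted p = 0.766 by limma, 3.91e-08 paired). The G-box binding TAF-2 (LOC107824425) was at 1.40 and 0.977 against 4.54, 2.75 and 6.98 (1.57, adjusted p = 0.348 by limma, 1.27e-06 paired).

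Feedback regulators were also above the controls. The ninja-family proteins AFP1-like and AFP3-like belong to a family that binds and restrains ABI5 in Arabidopsis. AFP1-like (LOC107785798) was at 1.96 and 2.24 in controls and 6.92, 6.98 and 14.7 in induced libraries, the largest log2 fold change of the list at 1.86 (adjusted p = 0.374 by limma, 0.00635 paired). AFP3-like (LOC107799287) was at 8.39 and 4.04 against 16.3, 11.3 and 24.6 (1.43, adjusted p = 0.860 by limma, 2.32e-11 paired). XERICO (LOC107822042), a RING ubiquitin ligase that raises abscisic acid levels in Arabidopsis, was at 1.68 and 1.32 against 3.35, 2.90 and 3.22 (0.87, adjusted p = 0.140 by limma, 0.00726 paired). Its effect at 48 h exceeded that at 4 h by 1.51 (adjusted p = 0.0248 by limma).

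The protective proteins LTI65 and LE25 are of the hydrophilic kind made during drying and cold. An LTI65-like gene (LOC107819933) was at 5.03 and 4.49 in controls and 8.45, 8.24 and 11.6 in induced libraries (log2 fold change 0.90, adjusted p = 0.0618 by limma, 1.05e-05 paired). An LE25-like gene (LOC107775665) was at 1.12 and 0.818 against 2.66, 2.34 and 2.96 (1.11, adjusted p = 0.0618 by limma, 5.95e-04 paired), and the other (LOC107813362) at 5.87 and 3.38 against 10.2, 7.99 and 12.3 (1.08, adjusted p = 0.323 by limma, 8.92e-07 paired). The groups did not overlap in these 3 genes. The kinase OSAK and the proline enzyme P5CS, also in the pathway, had log2 fold changes of −0.06 and 0.05.

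The library order was shared across the list. Control replicate 1 exceeded control replicate 2 in 22 of the 25 genes, against 44.5% of all genes tested. Induced replicate 3 was the highest induced library in 19 of 25, against 32.9% of all genes, and induced replicate 2 the lowest in 21. Control replicate 1 and induced replicate 3 carry the same library number, as do control replicate 2 and induced replicate 2. Control replicate 2 also stands for replicate 3, which carries the number of induced replicate 1. The summed value of the list was 195 and 127 in controls and 312, 237 and 436 in induced libraries. What the number stands for is not given in the labels, and its part in these differences was not tested beyond the paired fit.

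**Figure D2:**
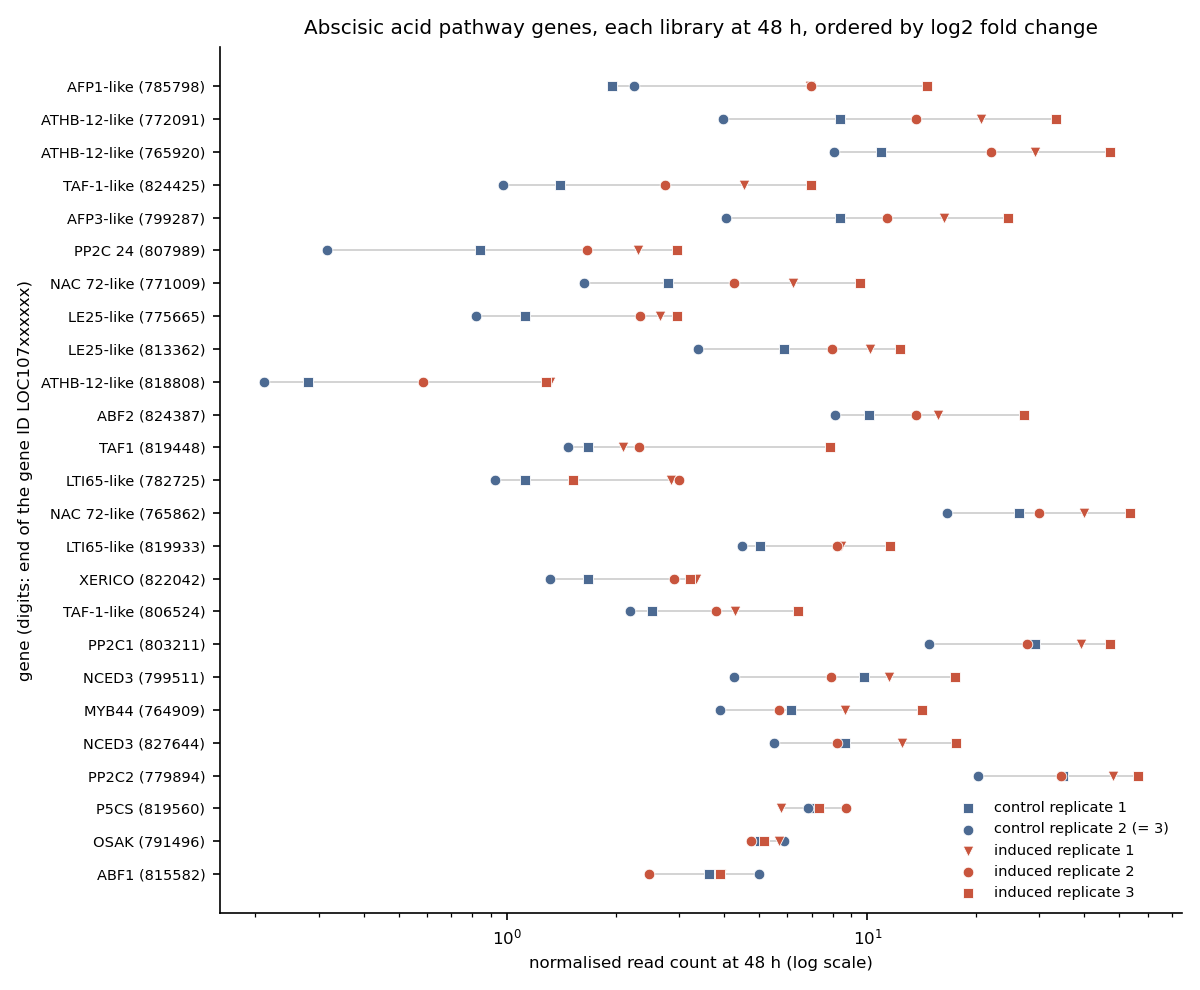
Normalised read count at 48 h (log scale) of the 25 abscisic acid pathway genes tested, with blue for the 2 control and red for the 3 induced libraries; gene rows are ordered by log2 fold change. In 17 rows all red points lie right of all blue points, and squares (control replicate 1 and induced replicate 3) tend to lie right of circles (control replicate 2 and induced replicate 2) of the same colour.

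Among ethylene genes, the highest log2 fold changes were in EIN3-binding F-box genes and an ARGOS-like gene. EIN3-binding F-box proteins mark EIN3 and its relatives, the EIL factors, for degradation and so restrain ethylene responses. All 4 of their genes that were tested had the induced libraries above the controls. EBF1-like LOC107806314 was at 4.75 and 4.38 in controls and 10.4, 7.63 and 13.4 in induced libraries (log2 fold change 1.08, adjusted p = 0.0891 by limma, 1.06e-05 paired). EBF2-like LOC107795861 was at 5.03 and 4.06 against 10.7, 7.74 and 14.8 (1.16, adjusted p = 0.295 by limma, 1.19e-06 paired). The EBF1-like genes LOC107780712 and LOC107770491 had log2 fold changes of 1.19 (adjusted p = 0.484 by limma, 0.0419 paired) and 0.93 (0.411 and 0.579). The authors' deposited table lists all 4 as higher.

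An ARGOS-like gene (LOC107781668), of a family that dampens ethylene perception in Arabidopsis and maize, is outside that table. It was at 0.839 and 0.818 in controls and 3.50, 1.17 and 3.71 in induced libraries, without overlap (log2 fold change 1.19, adjusted p = 0.756 by limma, 0.0408 paired). At 4 h it had passed as higher, with a log2 fold change of 0.78 (adjusted p = 0.0462 by limma). The 4 EIL factors and the receptors ETR1 and ERS, also outside the table, lay between −0.36 and 0.07. Of these 11 genes, 5 had induced libraries above and 1 below the controls, the median was 0.07, 0 passed by limma (5 higher and 1 lower at an unadjusted p under 0.05), and the receptor ETR1 (LOC107784797) was the 1 below, at 3.64 and 4.14 against 2.66, 2.66 and 3.46.

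Cytokinin genes were few, and all 4 stand in the authors' table. Cytokinins are sensed by histidine kinases that pass phosphate through phosphotransfer proteins to response regulators. The receptor histidine kinase 3-like (LOC107821378) was at 19.9 and 17.4 in controls and 27.8, 24.2 and 33.3 in induced libraries (log2 fold change 0.59, adjusted p = 0.239 by limma, 3.50e-04 paired). The histidine-containing phosphotransfer protein 1-like (LOC107813434) was at 1.40 and 1.64 against 3.57, 3.06 and 3.72 (0.97, adjusted p = 0.0657 by limma, 0.00169 paired). Groups were apart at both steps. The LOG3-like activating enzyme (LOC107769258) had a log2 fold change of 0.50, the ARR17-like response regulator (LOC107806182) 0.40, and the median of the 4 was 0.54 (3 at an unadjusted p under 0.05). In the gibberellin group the receptor GID1B-like (LOC107798874) was at 1.40 and 1.64 against 3.47, 2.59 and 3.60 (0.87, adjusted p = 0.155 by limma, 0.0124 paired). GA3ox2 (LOC107763040), which makes active gibberellin, was at 2.24 and 1.16 against 0.501, 1.04 and 0.732 (−0.79, adjusted p = 0.574 by limma). Over 7 gibberellin genes, 2 were above, 1 below and the median was 0.24.

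Among heat shock factors and chaperones, 11 were tested, and 7 lay above the controls and 0 below, against 12.3% and 9.23% of all genes tested. The median log2 fold change was 0.47. All 7 had an unadjusted p under 0.05, and 3 passed paired. The 7 above are all in the authors' table, and they include a histone H2A.Z-specific chaperone CHZ1-like gene (LOC107808815, log2 fold change 0.64), taken in by its name. The chloroplast dnaJ 11-like gene LOC107759587 was at 8.95 and 6.86 in controls and 11.6, 10.3 and 12.9 in induced libraries (0.53, adjusted p = 0.370 by limma, 0.0134 paired). The main chaperones outside the table, Hsp90 and 2 Hsp70 genes, had log2 fold changes of 0.03, 0.06 and 0.29, with overlapping groups.

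Genes tied to the products of glandular trichomes had small differences. A list of bHLH regulators, terpenoid enzymes and lipid transfer genes held 15 tested members, 2 of them in the authors' table. Of the 15, 6 lay above and 3 below the controls, against 12.3% and 9.23% of all genes tested. The median log2 fold change was 0.19. By limma 0 passed, with 3 higher and 0 lower at an unadjusted p under 0.05. The highest was an HMG-CoA reductase gene (LOC107772124), of the enzyme that commits carbon to the mevalonate route, at 1.96 and 1.69 in controls and 3.04, 3.69 and 3.87 in induced libraries (0.79, adjusted p = 0.182 by limma, 0.00253 paired). JAF13a (LOC107764381), a bHLH partner of MYB factors, was at 2.80 and 2.30 against 4.60, 3.15 and 4.03 (0.53, adjusted p = 0.574 by limma), and its relative JAF13b (LOC107826976) at 1.68 and 1.66 against 0.814, 1.53 and 1.33 (−0.36, adjusted p = 0.921 by limma). These regulators of 1 family lay on opposite sides of the controls.

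NtLTP3 (LOC107814800), an abundant lipid transfer protein, was at 61.3 and 67.6 in controls and 81.8, 78.1 and 79.8 in induced libraries, without overlap (log2 fold change 0.31, adjusted p = 0.756 by limma). NtABS (LOC107816701), a diterpene synthase of trichome heads, was at 1.68 and 1.27 against 1.28, 1.98 and 2.29, with overlap (0.24, adjusted p = 0.956 by limma). A farnesyl pyrophosphate synthase 1-like gene (LOC107765018), which feeds sesquiterpene synthesis, had 0.58. The zinc finger protein 8-like gene (LOC107828820), whose Arabidopsis relative promotes trichome initiation, was at 2.52 and 2.53 against 2.32, 1.67 and 0.945 (−0.55, adjusted p = 0.798 by limma, 0.0376 paired). It was below the controls in all 3 induced libraries, furthest in replicate 3. A subunit of the branched-chain 2-oxoacid dehydrogenase (LOC107800508), which supplies acyl groups for sugar esters, was at 0.839 and 0.238 against 1.10, 1.53 and 1.02 (0.78, adjusted p = 0.658 by limma).

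Cell division and photosynthesis genes had medians close to that of all genes. Of 23 cell division genes, 4 were above and 2 below, against 12.3% and 9.23% of all genes tested. Their median log2 fold change was 0.04 (−0.11 without control replicate 1) and the range −0.44 to 0.31. A gene listed as cyclin (LOC107793085) was at 11.2 and 11.2 in controls and 7.67, 8.39 and 8.37 in induced libraries (−0.44, adjusted p = 0.425 by limma), while the cyclin-dependent kinase inhibitor KRP (LOC107782554) was at 5.87 and 6.57 against 6.88, 8.71 and 8.00 (0.31, adjusted p = 0.823 by limma). Those 2 genes were the ends of the list and their groups did not overlap. Nuclear genes of photosynthesis, the markers of leaf tissue, numbered 22, with 1 above, 0 below, a median of 0.04 and a range of −0.11 to 0.16. CAB21 (LOC107776229), a chlorophyll-binding protein, was at 1174 and 1366 against 1496, 1403 and 1256, so chlorophyll-binding transcripts of green tissue were abundant in every library.

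Wall genes lay on both sides of the controls. By description, 6 were tested, 3 lay above (all in the authors' table) and 0 below, and the median log2 fold change was 0.49. In a list made by symbol after values were seen, which shares 2 extensin genes with it, 12 were tested, 2 lay above and 3 below, and the median log2 fold change was 0.05, with 2 higher and 1 lower at an unadjusted p under 0.05. Extensin-3-like (LOC107826255), a structural wall protein, was at 1.68 and 4.36 in controls and 2.78, 10.6 and 7.78 in induced libraries, with overlap (1.04, adjusted p = 0.954 by limma, 9.05e-08 paired), and it had passed as higher at 4 h (1.68, adjusted p = 0.0257 by limma). Expansin Nt-EXPA4 (LOC107808676), a wall-loosening protein, was at 45.0 and 57.8 against 38.6, 41.8 and 26.7, without overlap (−0.54, adjusted p = 0.644 by limma, 1.17e-04 paired). Of the genes found by description, an expansin-A10-like gene (LOC107802017) and expansin-A6-like (LOC107802488) were above the controls, at log2 fold changes of 0.73 and 0.45. The 2 above in the list by symbol were a glycine-rich wall protein (LOC107826033) at 0.57 (adjusted p = 0.335 by limma, 0.00422 paired) and the endoglucanase Cel2 (LOC107774012) at 0.38.

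Markers of other cell types were thin in these names. The KNOX genes of the shoot meristem, 4 tested, had 0 above, 0 below and a median log2 fold change of 0.08. The list of root names held only 2 root phototropism protein 3-like genes, the vascular list 1 gene at summed values of 0.559 and 0.158 in controls and 1.22, 1.06 and 0.732 in induced libraries, and the guard cell list had 0 genes tested. Their part in the results was not tested. Nicotine genes, which tobacco roots make, had low values in control replicate 1, from 0.280, the worth of 1 read, to 8.11. PMT1 (LOC107771646), the enzyme that commits putrescine to nicotine, was at 0.280 and 2.32 in controls and 0, 0.428 and 1.17 in induced libraries (−0.69, adjusted p = 0.969 by limma). BBL2.1 (LOC107791775), a late enzyme of the pathway, was at 0.280 and 1.95 against 0.375, 1.71 and 1.74 (0.24, adjusted p = 0.990 by limma), and −0.59 without control replicate 1. Over 12 such genes 0 were above and 0 below, and the median was −0.01, or −0.62 without that control. The demethylases that turn nicotine into nornicotine, CYP82E4 (LOC107819427) and CYP82E5 (LOC107780157), had 0.70 and 0.48 with both groups apart.

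Genes below the controls had fewer names. Wound and elicitor genes, such as those induced within minutes of touching or infecting a leaf, formed a group of them, chosen after values were seen. Of 18 tested, 16 had a negative log2 fold change, and the median was −0.37, with 0 in the authors' table of higher genes. Below the controls lay 7 and above them 1, against 9.23% and 12.3% of all genes tested. Given that choice, the direction of the list is not independent evidence. A defence list set by name patterns had 5 tested, 1 above, 0 below and a median of 0.01. The summed value of the wound list was 98.5 and 81.0 in controls and 70.1, 66.1 and 89.0 in induced libraries, so induced replicate 3 lay between the controls. By limma 0 passed, with 4 lower and 0 higher at an unadjusted p under 0.05, and 4 passed paired, all lower. ZFT1 (LOC107761653), a C2H2 zinc finger factor, was at 6.15 and 2.96 in controls and 0.814, 0.675 and 2.26 in induced libraries, without overlap (−1.57, adjusted p = 0.765 by limma, 5.70e-06 paired). NtERF4 (LOC107790518), an ethylene response factor, was at 3.36 and 1.85 against 0, 0.135 and 1.89, with overlap (−1.72, adjusted p = 0.920 by limma, 0.00433 paired). ACRE1 (LOC107769990), named for its rapid response to a fungal elicitor, was at 4.75 and 1.64 against 0.375, 0.675 and 2.47 (−1.21, adjusted p = 0.948 by limma, 0.0245 paired). Control replicate 1 and induced replicate 3, which share a library number, were the highest of their groups in each of these 3 genes.

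The NADPH oxidase rbohD (LOC107823725), which makes the oxidative burst, was at 5.03 and 5.86 in controls and 3.91, 3.53 and 4.30 in induced libraries, without overlap (−0.43, adjusted p = 0.640 by limma). The wound gene KED (LOC107827770) was at 18.7 and 14.6 against 13.7, 10.7 and 13.4, also without overlap (−0.38, adjusted p = 0.709 by limma, 0.0278 paired). The wound-induced kinase WIPK (LOC107821857) overlapped, at 1.96 and 1.72 against 1.13, 0.563 and 1.78 (−0.56, adjusted p = 0.854 by limma).

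Other named genes with the smallest p among those below the controls were regulators and enzymes. APO protein 3-like (LOC107779914), of organelle RNA splicing, was at 1.68 and 2.90 in controls and 0.845, 0.900 and 1.27 in induced libraries (log2 fold change −0.87, adjusted p = 0.332 by limma). DXDES (LOC107798633) was at 5.03 and 6.39 against 4.01, 4.59 and 3.40 (−0.47, adjusted p = 0.624 by limma). The remaining ones, a bZIP factor, a kinase regulator, a phosphatase, a phytochrome kinase substrate, an aspartic proteinase and the brassinosteroid enzyme CYP85A1, are given with the contrast to 4 h, where they passed a test. Apart from DXDES, the genes of this paragraph take their names from the authors' table of genes higher at 4 h.

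**Figure D3:**
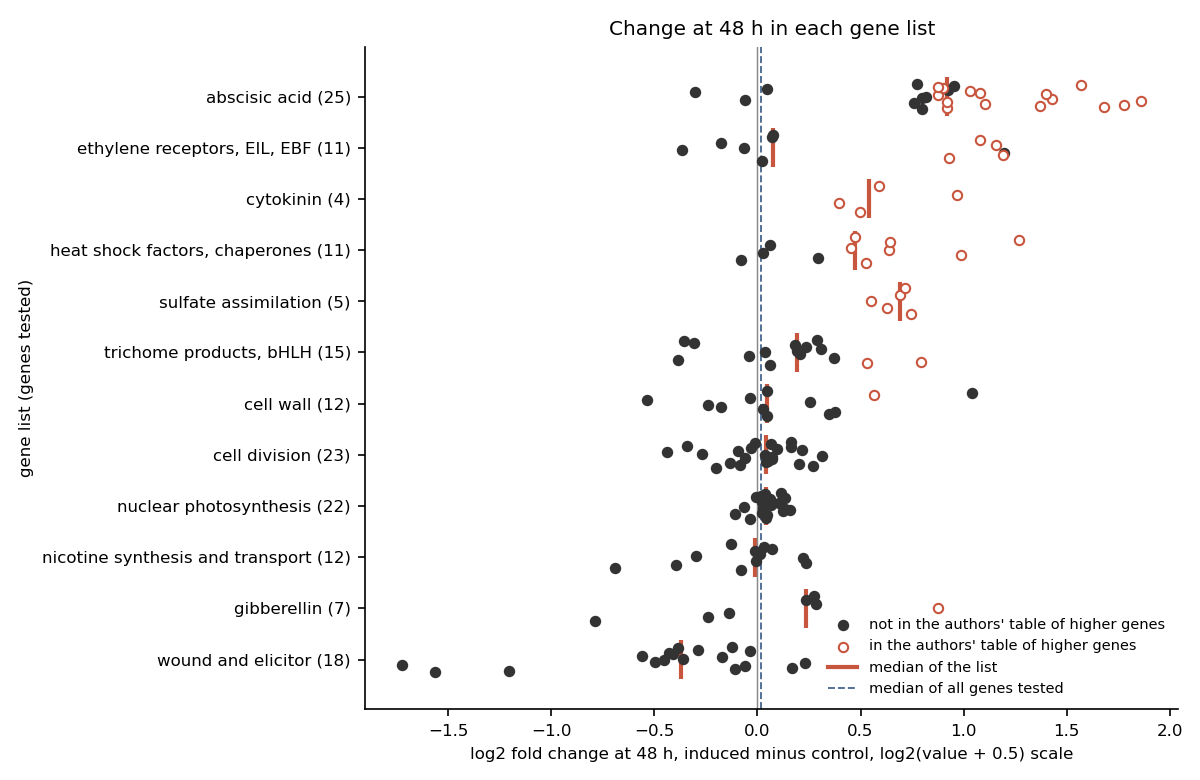
Log2 fold change at 48 h (induced minus control) of every tested gene in 12 lists, with the number tested in brackets; filled points are outside and open points inside the table of higher genes that the authors deposited, and thick bars are list medians. Abscisic acid genes have a median of 0.92 and wound and elicitor genes one of −0.37, while division, photosynthesis and wall genes sit near the dashed median of all genes. The cytokinin, heat shock factor and chaperone, and nicotine synthesis and transport lists were set by name patterns, and the other lists were made after values were seen.

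**Figure D4:**
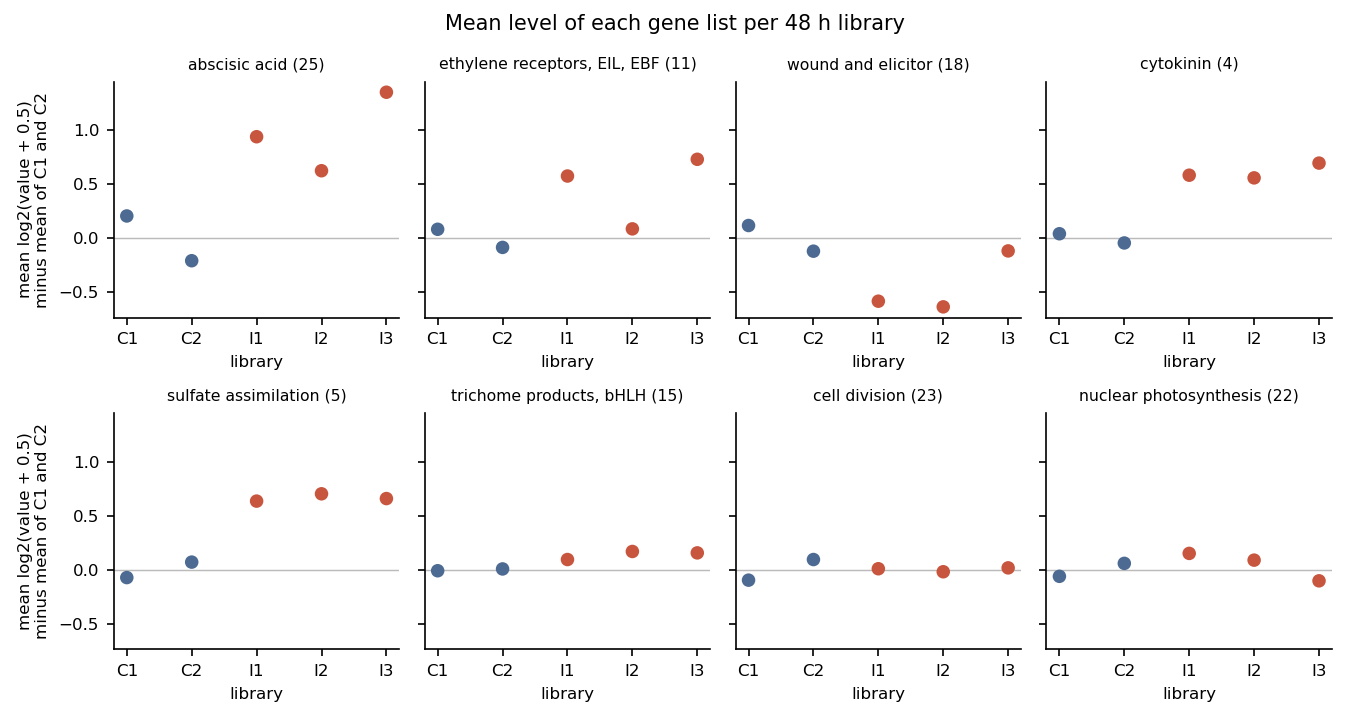
Mean log2(value + 0.5) of 8 gene lists in each 48 h library, relative to the mean of the controls (C1 and C2, control replicates; I1 to I3, induced replicates; number of genes in brackets). All 3 induced libraries lie above both controls for abscisic acid, ethylene, cytokinin, sulfate assimilation and trichome product genes. For ethylene genes I2 exceeds C1 only narrowly (means of 3.120 and 3.116). C1 and I3 stand highest of their groups for abscisic acid, ethylene, cytokinin and wound genes.

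The remaining lists gave the following. Of 36 transcription factor genes, 24 were above and 1 below with a median of 0.54, but the 15 outside the authors' table had 3 above, 1 below and 0.08. Of 33 kinase and ubiquitin ligase genes, 24 were above and 4 below, with a median of 0.46 and of −0.04 outside that table. Transport genes (11 tested, 9 above, median 0.47), redox genes (11, 6 above, 0.47), auxin genes (6, 2 above, 0.20), defence genes (5, 1 above, 0.01) and light and clock genes (5, 0 above and 1 below, 0.08) had few members. The transport list, set by name patterns, took in a biotin carboxyl carrier protein gene (LOC107824113), which is not a transporter. These counts follow the table that supplied the names, and the shares over all genes tested were 12.3% above and 9.23% below.

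The effect at 48 h was then set against that at 4 h, in a joint fit of both times. These comparisons share no library. Control replicate 1 at 4 h held only 917871 reads, and 1 read there was worth a value of 0.697. In the other 4 h libraries 1 read was worth 0.0214 to 0.0322, so low values of that control rest on few reads. Of 41755 genes, 66 passed for the difference (0.158%), 44 of them with a more positive and 22 with a more negative effect at 48 h, and 63 of the 66 also passed when libraries were paired. Of the genes named here, LOC107809507 (paired adjusted p = 0.164) and LOC107772048 (0.360) did not. Paired, 347 genes passed (0.831%). The count was 21 without control replicate 2 at 48 h, 98 without induced replicate 2 at 48 h, 35 without control replicate 1, 38 without control replicate 3, 40 without induced replicate 3 and 43 without induced replicate 1 at 4 h. In 57 of the 66 the effects at the times had opposite signs. Choosing genes by the difference of these effects favours opposite signs, so this count is no test of a reversal. Of the 44, 31 were genes called lower at 4 h, and of the 22, 9 were called higher there, while 24 of the 66 passed at neither time alone.

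Of the genes that passed at 4 h, 1 passed at 48 h. At 4 h 131 of 37238 genes passed (0.352%), 36 higher (0.0967%) and 95 lower (0.255%). Of the 36, 31 were tested at 48 h, and 13 had a positive and 18 a negative value, with a median log2 fold change of −0.04 against 0.78 at 4 h. Of these 31, 3 lay above the controls, 10 below and 0 passed (limma). Over all genes tested at 48 h, 12.3% lay above and 9.23% below. Of the 95, 89 were tested, 50 positive and 39 negative, with a median of 0.09 against −0.91 at 4 h. Among those 89, 17 lay above the controls and 13 below, and only LOC107782728 passed, on the opposite side. The unnamed gene LOC107772048, among the strongest at 4 h (log2 fold change −2.55), was at 11.2 and 18.5 in controls and 7.92, 6.64 and 10.6 in induced libraries at 48 h (−0.77, adjusted p = 0.712 by limma).

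Some named genes had a negative value at 4 h and lay above the controls at 48 h. The LOB domain protein 40-like gene (LOC107799348), of a family of plant-specific factors at organ boundaries, fell at 4 h from 2.09, 2.45 and 2.29 to 0.526, 0.854 and 0.420 (log2 fold change −1.35, adjusted p = 0.00270 by limma). At 48 h it was at 1.40 and 0.739 in controls and 2.63, 2.25 and 2.07 in induced libraries (0.87, adjusted p = 0.252 by limma, 0.0434 paired), and the difference was 2.57 (adjusted p = 0.00116 by limma). The groups did not overlap at either time. The dnaJ 11-like gene fell at 4 h (LOC107759587, −0.91, adjusted p = 0.00529 by limma) and its effect was higher by 1.48 at 48 h (adjusted p = 0.00796 by limma). The histidine kinase 3-like receptor (LOC107821378) had −0.42 at 4 h (adjusted p = 0.158 by limma) and a difference of 1.03 (adjusted p = 0.0105 by limma). A V-type proton ATPase subunit A-like gene (LOC107823795), part of the pump that acidifies the vacuole, was at 11.7 and 11.6 in controls and 17.5, 17.8 and 22.4 in induced libraries at 48 h (0.69, adjusted p = 0.116 by limma, 2.68e-05 paired), with a difference of 0.90 (adjusted p = 0.0387 by limma).

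Genes with a positive value at 4 h and induced libraries below the controls at 48 h were also among those that passed for the difference. Those in this and the next paragraph have names because the authors listed them as higher at 4 h. Their direction at 4 h is therefore not independent evidence. The bZIP61-like factor (LOC107777300) rose at 4 h from 5.57, 7.57 and 6.58 to 11.5, 14.2 and 9.74 (log2 fold change 0.79, adjusted p = 0.00630 by limma). At 48 h it was at 3.92 and 3.70 in controls and 2.60, 2.45 and 1.98 in induced libraries (−0.60, adjusted p = 0.411 by limma, 0.0432 paired), a difference of −1.46 (adjusted p = 0.00486 by limma). CYP85A1 (LOC107760973), a late enzyme of brassinosteroid synthesis, rose at 4 h from 3.48, 4.38 and 4.21 to 6.12, 7.60 and 7.44 (0.74, adjusted p = 0.0160 by limma). At 48 h it was at 1.96 and 1.85 against 1.16, 1.08 and 0.564 (−0.77, adjusted p = 0.473 by limma, 0.0355 paired), a difference of −1.70 (adjusted p = 0.0107 by limma). In both genes the groups were apart at each time, with the order reversed.

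Membrane-associated kinase regulator 6 (LOC107764853), of a family that binds receptor kinases, was at 4.48 and 3.33 in controls and 2.57, 2.45 and 1.98 in induced libraries (log2 fold change −0.63, adjusted p = 0.423 by limma, 0.0448 paired), a difference from 4 h of −1.34 (adjusted p = 0.00912 by limma). The tyrosine phosphatase At1g05000 (LOC107759579) was at 3.64 and 3.85 against 2.13, 2.21 and 2.73 (−0.58), a difference of −1.36 (adjusted p = 0.00796 by limma). PHYTOCHROME KINASE SUBSTRATE 3-like (LOC107815731), of a family that acts in light-guided growth, was at 5.31 and 4.57 against 3.47, 3.42 and 2.68 (−0.56), a difference of −1.37 (adjusted p = 0.0336 by limma), though at 4 h it did not pass (0.74, adjusted p = 0.109 by limma). The aspartic proteinase PCS1-like (LOC107786388), whose Arabidopsis relative keeps reproductive cells alive, was at 1.68 and 2.16 against 1.06, 0.990 and 1.10 (−0.64), a difference of −1.43 (adjusted p = 0.0157 by limma), and it did not pass at 4 h either (0.65, adjusted p = 0.0589 by limma). In these 4 genes each induced library at 48 h lay below each control library.

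**Figure D5:**
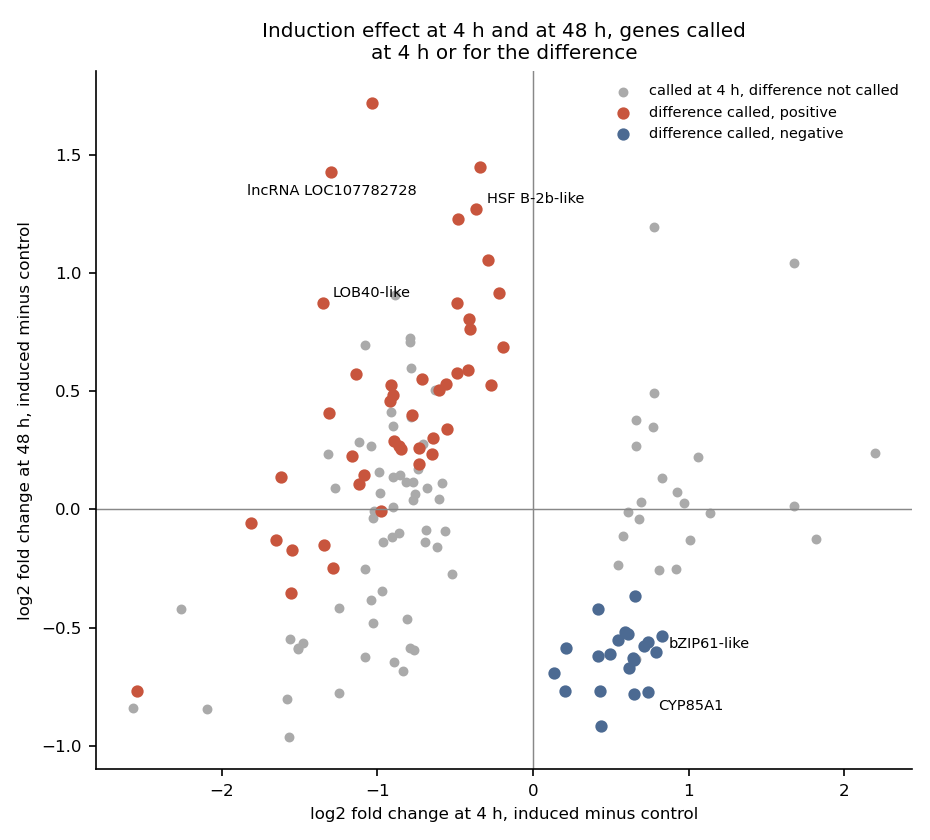
Log2 fold change (induced minus control) at 4 h and at 48 h of genes called at 4 h or for the difference, each point a gene tested at both times. Red and blue points are genes whose effect passed as more positive or more negative at 48 h; 36 red points lie in the upper left and 21 blue points in the lower right, where the effects have opposite signs. Choosing genes by the difference favours these positions.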

How the data were processed

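Poly(A) RNA was sequenced as paired reads of 150 bp, at least 38 M per library, per the labels. The deposited values are a signal per gene: whole reads that the authors divided by a factor of each library, as the values show. The submitters' processing notes name edgeR, without its role or version. The aligner, counting, strand setting and build were not given in the sources used here. The tables of the 2 times were scaled separately. Dividing each library by the value of 1 read gave whole reads for 100% of the values (tolerance 0.01), so reads were recovered. Over all genes at 48 h, these ran from 1274469 reads in control replicate 1 to 44946993 in control replicate 2. They are reads counted in genes, not the reads sequenced that the labels give. Genes with any single value above 5000 and over 20 times the gene's median were left out (14 at 48 h, 4 at 4 h), and 6 columns of per-sample values in a shorter 48 h table, headed as 4 h samples, were not used.

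Genes with a value of at least 1 in at least 2 of the 5 libraries (3 of 6 at 4 h) were tested with limma 3.58.1 in R 4.3.3 (trend, robust) on log2(value + 0.5), with Benjamini-Hochberg adjustment at 0.05 over all genes. All fold changes are log2 differences on that scale, which understates those of low genes. The 48 h minus 4 h difference was fitted on log2(CPM + 0.5) of recovered reads, scaled by TMM, over 11 libraries and genes with a CPM of at least 1 in 2 libraries. Alternatives were edgeR 4.0.16, DESeq2 1.42.0, voom, other scalings, pseudocounts and filters, blocks and leaving out libraries. Scripts were tested on simulated data. No label says that collections were separate cultures beyond being separate samples, so each p-value reflects how far these samples vary, which may be technical.

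The labels number the libraries, and libraries that share a number deviated together from their group means. The correlations were 0.164, 0.216 and 0.182 at 4 h (19703 genes) and 0.535 and 0.472 at 48 h (11369 genes), where the 2 controls deviate as mirror images. The merged 48 h control carries the numbers of induced replicates 2 and 1, and its correlations with them were 0.472 and 0.113. It was paired with induced replicate 2. The numbers were therefore taken as pairs in the paired fit, while genes are called from the unpaired fit unless stated.

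Named were all genes past the threshold, the 10 named genes with the smallest p above and below the controls, up to 4 members of each list, the strongest genes at 4 h and up to 10 genes for the difference; of these, those whose values show a group are printed, and further genes were added after their values were seen. Members and lists were chosen with earlier results of these data known. The lists of abscisic acid, ethylene, wound, trichome product, photosynthesis, division, wall, gibberellin, nicotine conversion, KNOX and sulfate genes were made after values were seen. Names are RefSeq symbols and descriptions in the tables of higher genes that the authors deposited (39993 genes of 45034 matched; 1420 of the 48 h table named). Tobacco holds close copies of most genes, so reads may be split between copies such as those of ATHB-12, NAC72, EBF, LE25 and LTI65, and the lncRNAs may share reads with overlapping genes. Promoter sequences were not analysed here.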

Additional observations from a re-analysis of the deposited data

Results flagged for a closer look

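The induction effect differed between 48 h and 4 h, by the joint limma test of the difference itself at an adjusted p under 0.05, in 23 genes described here, given as the log2 effect at 48 h minus that at 4 h. Among genes with a more positive effect at 48 h, the difference was 2.78 for the lncRNA LOC107782728, 2.57 for LOB40-like LOC107799348, 1.69 for the heat stress factor B-2b-like LOC107823244, 1.51 for XERICO LOC107822042 and 1.48 for dnaJ 11-like LOC107759587. It was 1.41 for LOC107809507, which did not pass with libraries paired (adjusted p = 0.164 by limma), 1.24 for root phototropism protein 3-like LOC107829820, 1.03 for histidine kinase 3-like LOC107821378 and 0.90 for the V-type ATPase subunit LOC107823795.

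Genes with no name in the files made up part of the set. The lncRNA LOC107769771 was at 2.52 and 2.27 in the 48 h controls and 6.07, 6.10 and 10.8 in induced libraries, and its difference was 1.92 (adjusted p = 0.00114 by limma). The difference was 1.80 for LOC107798225, 1.78 for LOC107763197, 1.79 for LOC107772048 (not past the threshold paired, adjusted p = 0.360 by limma), 1.40 for LOC107832117, 1.21 for LOC107820178 and 1.13 for LOC107803553. In that order, these genes were lower at 4 h, with log2 fold changes there of −1.62, −1.31, −2.55, −1.55, −1.34 and −0.85. At 48 h their log2 fold changes were 0.14, 0.41, −0.77, −0.17, −0.15 and 0.26, and they did not pass by limma.

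In the other direction, the difference was −1.70 for CYP85A1 LOC107760973, −1.46 for bZIP61-like LOC107777300, −1.43 for PCS1-like LOC107786388, −1.37 for the phytochrome kinase substrate LOC107815731, −1.36 for the tyrosine phosphatase LOC107759579 and −1.34 for the kinase regulator LOC107764853. It was −1.45 for the misc_RNA LOC107771462, at 10.6 and 10.8 in the 48 h controls and 6.38, 6.35 and 5.38 in induced libraries.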

How the results depend on the processing

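The count of 4 genes at 48 h became 11 with a pseudocount of 2, 13 with DESeq2, 1 with edgeR, 0 with voom (3186 at an unadjusted p under 0.05), 10 with both times in 1 fit, 409 with the replicate block by library number and 122 with the block by title number. It ranged from 3 to 67 when a library was left out (with a control left out, the lone control is assumed to vary like the induced libraries), and stayed at 3 or 4 under the other 7 settings. The count of 66 for the difference became 347 with the replicate block, 40 with edgeR, 42 with voom and 42 without control replicate 1 at both times, and 21 to 98 when a library was left out (35, 38, 40 and 43 without control replicates 1 and 3 or induced replicates 3 and 1 at 4 h). LOC107782728 and LOC107823244 passed in every leave-one-out fit. The sign reversed for BBL2.1 LOC107791775 and for LOC107798225 (−0.021 without control replicate 2). For BBL2.1 the value went from 0.24 to −0.29 with edgeR, −0.50 with voom and −0.038 with the repeated control counted as 2 samples. With a library left out, it ranged from −0.59 without control replicate 1 to 1.06 without control replicate 2. It was 0.69 without induced replicate 1. The cause of the reversals was not tested. Of the single-gene values at 48 h, 1724 kept their direction and side of the threshold, 122 passed only in an alternative and 17 lost the threshold, all of them of the 4 genes that passed. Of the differences, 82 values lost it. Among 20 settings it was lost in 14 for LOC107809507, 12 for LOC107829820, 11 each for LOC107815731 and LOC107823795, 9 for LOC107822042 and at most 6 for any other. Depth limits low genes in control replicate 1 at 48 h, where 1 read is worth 0.280, and in control replicate 1 at 4 h, where it is worth 0.697. The planned search of promoter motifs was not run.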

Other observations

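Sulfate uptake and assimilation genes were a group of their own, chosen after their values were seen, and the authors' deposited table lists all 5 as higher, so their direction is not independent evidence. All 5 had the induced libraries above the controls at 48 h, with a median log2 fold change of 0.69, against −0.40 at 4 h; by limma 0 passed, 5 had an unadjusted p under 0.05, and 4 passed with libraries paired. SULFUR DEFICIENCY-INDUCED 1-like (LOC107821404), of a family induced by sulfur shortage in Arabidopsis, was at 2.24 and 2.30 in controls and 4.19, 4.05 and 3.87 in induced libraries (0.71). APS reductase 3 (LOC107799658), the reducing step of the pathway, was at 2.52 and 3.83 against 5.79, 5.83 and 4.47 (0.69). ATP sulfurylase (LOC107774814), the step before it, was at 1.12 and 1.37 against 1.66, 2.90 and 2.88 (0.74), and sulfate transporter 1.3 (LOC107793521) at 0.839 and 0.633 against 1.44, 1.04 and 1.48 (0.55). The induced libraries did not share the order seen in the abscisic acid genes.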
